A study of Mus musculus with 12 samples.

Results

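The genes described here are the neurotrophin BDNF, the receptors of the neurotrophins and the receptors of the related factor GDNF, in mouse striatum. The set was chosen by name and not by measured values. It holds 9 genes in their usual roles: the ligands Bdnf, Ntf3 and Gdnf, the receptor kinases Ntrk2 and Ntrk3, the GDNF-family co-receptors Gfra1 and Gfra2, and the sorting receptors Sort1 and Sorcs2. Of these, 8 were matched by single gene symbol to a probe set of the array, each to 1 probe set, among 19248 genes tested, and Ntf3 was not analysed here. Whole-transcript arrays measured striatal RNA of 12 mice aged 8 weeks in a cross of a Huntington's disease (HD) model with a knockout of p62, the autophagy receptor encoded by Sqstm1. HD_p62KO mice carried the HD transgene on the p62-/- background, HD_p62WT mice carried it with both p62 copies normal, NT_p62KO mice were non-transgenic and p62-/-, and NT_p62WT mice were non-transgenic with normal p62 (3 mice each). The sources used here name neither the HD line, nor the promoter of its transgene, nor the sexes. The study asked what loss of p62 does to the transcriptome of the HD model.

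BDNF binds the receptor kinase TrkB, encoded by Ntrk2, which signals through the Ras, phosphoinositide 3-kinase and phospholipase C pathways to sustain neurons and strengthen synapses. Projection neurons of the striatum make little BDNF themselves and receive most of it from axons of the cortex and midbrain, and a shortage of cortical BDNF is a long-studied feature of Huntington's disease. The precursor form, proBDNF, binds instead a complex of the p75 receptor with sortilin-type receptors such as Sort1 and SorCS2. GDNF and neurturin act through the GPI-anchored co-receptors GFRα1 and GFRα2 together with the kinase RET.

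Each value below is the authors' log2 expression value of a probe set, so that a difference of 1 is a doubling, and a value of one gene cannot be set against that of another. The 12 array medians over all genes lay between 7.79 and 7.83. Each array's SD over all genes was 1.66 to 1.73 in HD_p62KO, 1.64 to 1.71 in HD_p62WT, 1.58 to 1.67 in NT_p62KO and 1.65 to 1.66 in NT_p62WT mice. Sqstm1 was 8.92 to 9.13 in HD_p62KO against 11.26 to 11.75 in HD_p62WT mice, and 8.44 to 8.52 in NT_p62KO against 11.19 to 11.35 in NT_p62WT mice, as the labels state. Means of 12 markers of striatal projection neurons, among them Drd1, Drd2 and Penk, were 10.63 to 10.67 in HD_p62KO and 10.71 to 10.73 in HD_p62WT mice, against 11.03 to 11.21 in NT_p62KO and 10.99 to 11.11 in NT_p62WT mice, so every HD mouse was below every non-transgenic mouse. Not all 12 markers were lower. Averaged over both p62 genotypes, Tac1 was 0.28 higher in HD mice (limma, adjusted p = 0.00669). Gad1 and Gad2 differed by -0.13 and 0.04 (limma, adjusted p = 0.105 and 0.559). Fewer cells of a type and less RNA per cell cannot be told apart in these whole-tissue samples. A gene is called changed where limma's Benjamini-Hochberg adjusted p over all 19248 genes was below 0.05.

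Ntrk3 and Sorcs2 were lower in HD mice both without p62 and with normal p62, and Bdnf fell without p62 and did not pass with normal p62. Ntrk2 stayed within the spread of the mice. Averaged over both p62 genotypes, 5 of the 8 genes fell (Bdnf, Ntrk3, Sort1, Sorcs2 and Gfra2), 0 rose and 3 did not pass. Over all genes, 15.0% fell and 19.9% rose in the same test. The median of the 8 differences was -0.24, against -0.02 over all genes. In mice without p62, 3 of the 8 fell (Bdnf, Ntrk3 and Sorcs2), against 8.34% of all genes lower and 13.3% higher. With normal p62, 2 fell (Ntrk3 and Sorcs2), against 3.24% lower and 3.85% higher. Loss of p62 changed 0 of the 8 in HD mice and 0 in non-transgenic mice (limma).

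**Figure D1:**
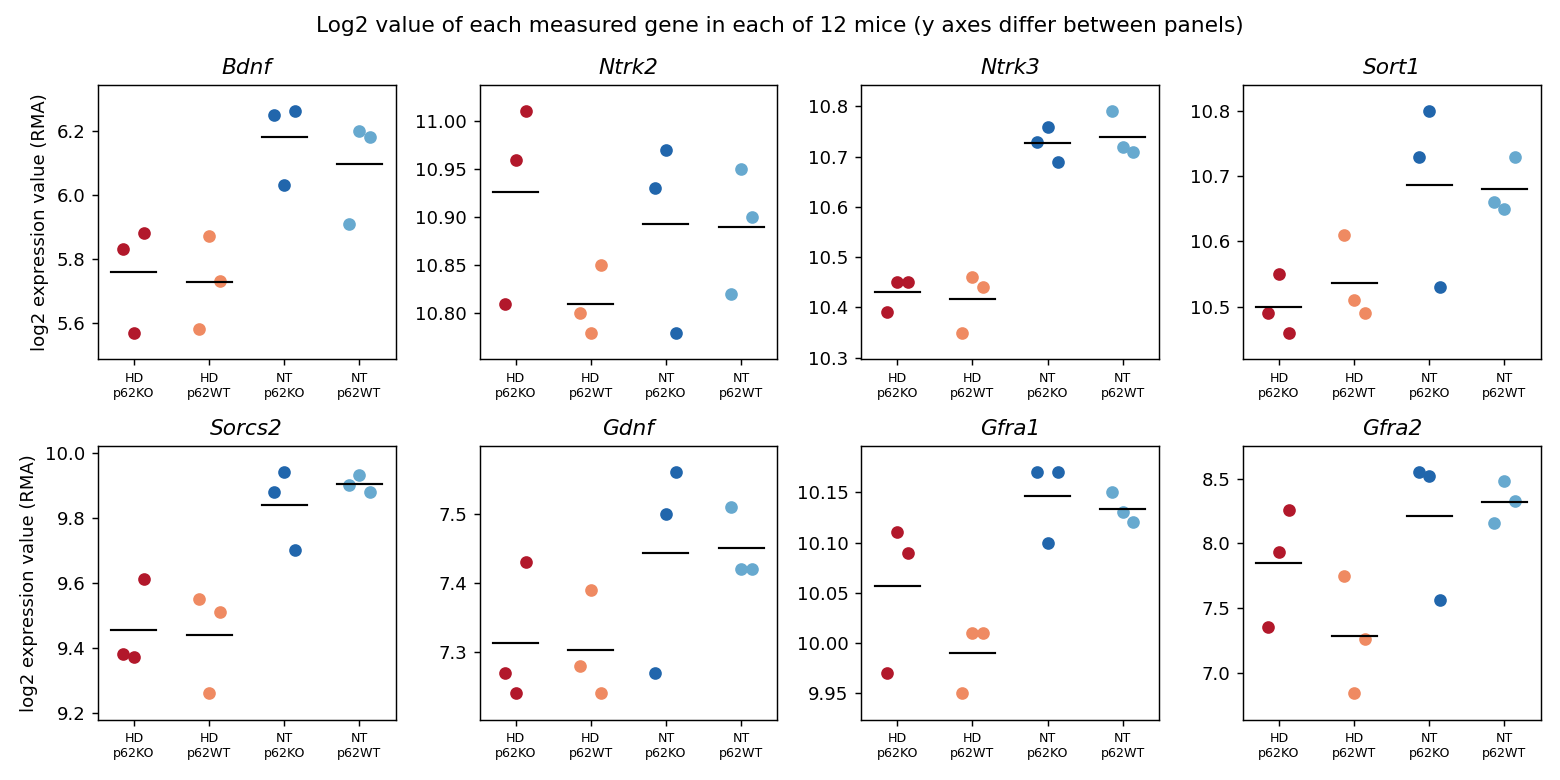
Log2 expression value (RMA, y axis, a different range in each panel) of the 8 measured genes in each of 12 mice, with 3 mice per group on the x axis and a bar at the group mean. For Ntrk3, Sorcs2 and Bdnf every one of the 6 HD mice lies below every one of the 6 non-transgenic mice, and for Ntrk2 the groups overlap.

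Bdnf, the ligand of TrkB, lies on chromosome 2 (109674700 to 109727043, GRCm38.p6). Its single probe set is annotated to 11 curated RefSeq transcripts, which start at several promoters and share the coding exon, so that the array sums them. RefSeq lists 7 start sites for Bdnf, and the windows of 250 bases before to 50 after the first and the third are shown because transcription from Bdnf promoters is known to answer to neuronal activity through factors such as CREB and NPAS4. Both are given on the plus strand of GRCm38.p6, the first at chr2:109674450-109674749 and the third at chr2:109692186-109692485, with capitals in the third marking the CREB core motif (TGACG or its reverse complement CGTCA), which the first lacks.
Bdnf start site 1: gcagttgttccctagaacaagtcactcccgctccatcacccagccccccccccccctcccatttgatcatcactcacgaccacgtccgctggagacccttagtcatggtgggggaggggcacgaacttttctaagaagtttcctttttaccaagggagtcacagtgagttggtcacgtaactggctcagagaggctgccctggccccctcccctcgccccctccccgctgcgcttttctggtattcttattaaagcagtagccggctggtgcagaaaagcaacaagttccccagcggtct
Bdnf start site 3: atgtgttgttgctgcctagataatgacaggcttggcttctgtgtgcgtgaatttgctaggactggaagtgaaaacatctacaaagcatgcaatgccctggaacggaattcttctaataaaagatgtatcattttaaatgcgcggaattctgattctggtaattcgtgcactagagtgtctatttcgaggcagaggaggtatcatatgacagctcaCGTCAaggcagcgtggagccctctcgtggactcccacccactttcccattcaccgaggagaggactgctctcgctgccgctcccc
The whole CREB palindrome TGACGTCA was in 0 of the 7 windows and in 1.79% of all 32851 promoter windows. The core motif, searched on both strands and counted inside a palindrome too, was in 1 of the 7 and in 20.8% of all windows. It begins at position -35 of the third window, the start site being 0. The E-box CACGTG and the Egr site GCGTGGGCG were in 0 of the 7 (7.15% and 0.612% of all windows). A match or its lack in these windows is a description of letters only.

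Bdnf read 5.83, 5.57 and 5.88 in HD_p62KO mice against 6.25, 6.03 and 6.26 in NT_p62KO mice. In mice with normal p62 it read 5.58, 5.87 and 5.73 in HD_p62WT against 5.91, 6.20 and 6.18 in NT_p62WT. All 6 HD mice were below all 6 non-transgenic mice, with the narrowest gap between HD_p62KO replicate 3 and NT_p62WT replicate 1. Such a complete separation in the lower direction was found for 3 of the 8 genes (Bdnf, Ntrk3 and Sorcs2) and for 5.69% of all genes. The mean HD effect on Bdnf was -0.39 ± 0.081 (SE, 6 mice a side, 1.31-fold lower; limma, adjusted p = 0.00384). Without p62 Bdnf fell by 0.42 (SE 0.11; adjusted p = 0.0246), and with normal p62 the difference was -0.37 ± 0.11 (SE; adjusted p = 0.0708). The call without p62 was lost without HD_p62KO replicate 2 (-0.32, adjusted p = 0.107) or NT_p62KO replicate 1 or 3 (-0.38 each, adjusted p = 0.0668 and 0.0855) and with only the groups compared in the fit (-0.42, adjusted p = 0.0524). The difference with normal p62 passed with array weights (-0.38, adjusted p = 0.022).

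The Bdnf probe set was dim, and its call depended on whether array spread was in the fit. Its mean of 5.94 lay in the dimmest 25% of genes, in which 18.0% fell and 5.32% rose for the mean HD effect, with a median of -0.11. With each array's SD as a covariate the mean HD effect on Bdnf was -0.28 ± 0.094 (SE; adjusted p = 0.082) and the effect without p62 was -0.27 ± 0.13 (SE; adjusted p = 0.28). With normal p62 the difference was -0.53 and passed without the 3 arrays of smallest spread (HD_p62WT replicate 2, NT_p62KO replicate 3 and NT_p62WT replicate 1; adjusted p = 0.0435), and without p62 it was then -0.38 (adjusted p = 0.0659). Markers of cortical excitatory neurons, the cells whose axons supply BDNF to the striatum, had list means of 7.75 to 8.24 in HD_p62KO and 7.74 to 7.96 in HD_p62WT mice, against 7.85 to 8.59 in NT_p62KO and 8.11 to 8.62 in NT_p62WT mice. Of the 11 measured cortical markers, 2 fell for the mean HD effect (Nrn1 and Rspo1), 0 rose and 9 did not pass. Over all genes 15.0% fell and 19.9% rose, so the share of cortical markers that fell was near that of all genes. With that list mean as a covariate the mean HD effect on Bdnf was -0.34 ± 0.10 (SE; limma, adjusted p = 0.034). The difference was then -0.38 without p62 (adjusted p = 0.0465) and -0.30 with normal p62 (adjusted p = 0.228). The part of cortical tissue in the Bdnf result was not tested beyond these values.

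Ntrk2, encoding TrkB, lies on chromosome 13 (58806472 to 59133970), and its single probe set is annotated to 3 curated transcripts. Its value does not tell full-length and truncated receptor forms apart, and which forms its probes cover was not examined. Ntrk2 read 10.81, 10.96 and 11.01 in HD_p62KO and 10.80, 10.78 and 10.85 in HD_p62WT mice, against 10.93, 10.97 and 10.78 in NT_p62KO and 10.82, 10.95 and 10.90 in NT_p62WT mice. The 4 groups overlapped, and no neighbouring pair in the order of group means was separate. The mean HD effect was -0.02 ± 0.053 (SE; 95% interval -0.14 to 0.09; adjusted p = 0.757), so a change of more than 0.14 in either direction lay outside the interval. The differences without and with p62 were 0.03 ± 0.075 and -0.08 ± 0.075 (SE; adjusted p = 0.748 and 0.541).

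Ntrk3, encoding TrkC, the receptor kinase of neurotrophin-3, lies on chromosome 7 (78179986 to 78581034). It read 10.39, 10.45 and 10.45 in HD_p62KO against 10.73, 10.76 and 10.69 in NT_p62KO mice, and 10.35, 10.46 and 10.44 in HD_p62WT against 10.79, 10.72 and 10.71 in NT_p62WT mice. All 6 HD mice were below all 6 non-transgenic mice, and within each group the 3 values lay close together. Ntrk3 fell by 0.30 without p62 (SE 0.061, 1.23-fold; adjusted p = 0.00856) and fell by 0.33 with normal p62 (SE 0.061, 1.25-fold; adjusted p = 0.0115). Averaged over p62 genotypes the difference was -0.31 ± 0.043 (SE; adjusted p = 0.000482) and passed under each of the 24 alternative settings run (-0.36 to -0.30). With normal p62 the call was lost without HD_p62WT replicate 1 (-0.29, adjusted p = 0.0562) or NT_p62WT replicate 1 (-0.30, adjusted p = 0.053). It was also lost with the cortical marker mean as a covariate, at the same size (-0.33, adjusted p = 0.0519).

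Sorcs2, a receptor of the VPS10 family that binds proBDNF together with p75, lies on chromosome 5 (36017180 to 36398197). It read 9.38, 9.37 and 9.61 in HD_p62KO against 9.88, 9.94 and 9.70 in NT_p62KO mice. With normal p62 it read 9.55, 9.26 and 9.51 in HD_p62WT against 9.90, 9.93 and 9.88 in NT_p62WT mice. The HD mice again lay entirely below the non-transgenic mice, and NT_p62KO replicate 3 was the lowest non-transgenic mouse. Sorcs2 fell by 0.39 without p62 (SE 0.096, 1.31-fold; adjusted p = 0.0179) and by 0.46 with normal p62 (SE 0.096, 1.38-fold; adjusted p = 0.0173). Over both p62 genotypes the difference was -0.43 ± 0.068 (SE; adjusted p = 0.0011), past the threshold in all 24 alternative settings (-0.56 to -0.33). The call without p62 was lost without HD_p62KO replicate 2 (-0.35, adjusted p = 0.0743) and with only the groups compared in the fit (-0.39, adjusted p = 0.0525). The call with normal p62 was lost without NT_p62WT replicate 1 or 3 (-0.47 each, adjusted p = 0.0581 and 0.0543), without the 3 arrays of smallest spread (-0.38, adjusted p = 0.052) and with the cortical marker mean as a covariate (-0.34, adjusted p = 0.102).

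Sort1, encoding sortilin, which sorts BDNF into the secretory pathway and binds proneurotrophins at the cell surface, lies on chromosome 3 (108283974 to 108361519). It read 10.49, 10.55 and 10.46 in HD_p62KO against 10.73, 10.80 and 10.53 in NT_p62KO mice, and 10.61, 10.51 and 10.49 in HD_p62WT against 10.66, 10.65 and 10.73 in NT_p62WT mice. NT_p62KO replicate 3 lay within the range of the HD mice. The mean HD effect was -0.16 ± 0.055 (SE, 1.12-fold lower; adjusted p = 0.0382), the smallest of the 5 called differences. It was lost on leaving out any 1 of 10 mice (-0.18 to -0.13, adjusted p = 0.0509 to 0.0873), HD_p62WT replicate 1 and NT_p62KO replicate 3 being the exceptions, and with the cortical marker mean as a covariate (-0.10, adjusted p = 0.254). Neither single comparison passed, with -0.19 ± 0.078 without p62 and -0.14 ± 0.078 with normal p62 (SE; adjusted p = 0.101 and 0.284). Without NT_p62KO replicate 3 the difference without p62 was -0.27 and passed (adjusted p = 0.0378).

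**Figure D2:**
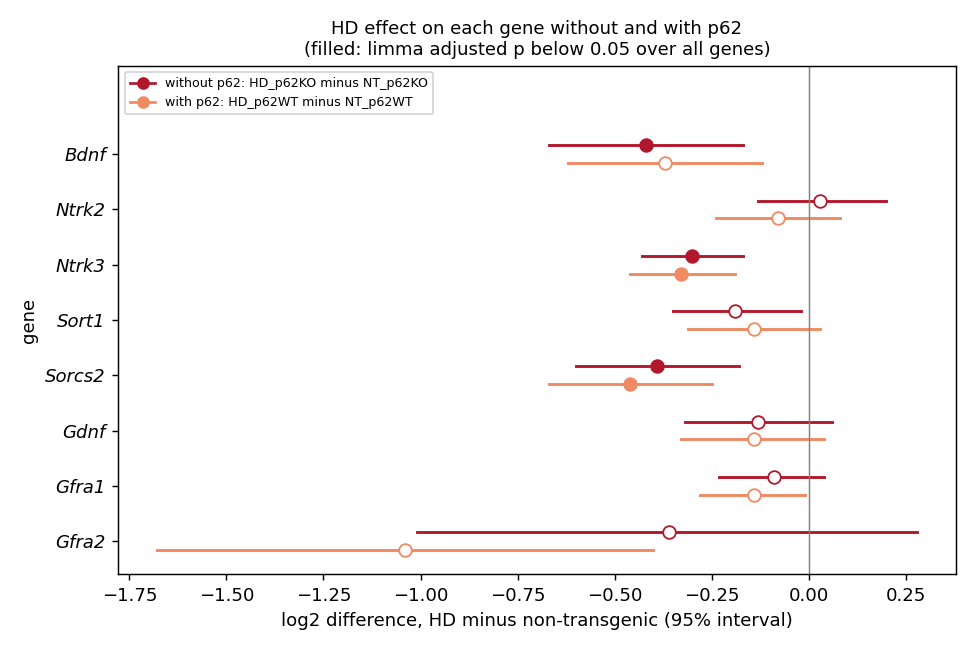
Log2 difference between HD and non-transgenic mice (x axis) for each gene (y axis), without p62 (dark) and with normal p62 (light), with lines for the 95% interval and filled points for an adjusted p below 0.05. The pairs of points lie close together for Ntrk3, Sorcs2 and Bdnf, all below 0, and the intervals of Gfra2 are the widest.

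Gdnf, the ligand, lies on chromosome 15 (7810048 to 7837580), and Gfra1, which encodes its preferred co-receptor, on chromosome 19 (58235581 to 58455946). Gdnf read 7.24 to 7.43 in HD_p62KO and 7.24 to 7.39 in HD_p62WT mice, against 7.27 to 7.56 in NT_p62KO and 7.42 to 7.51 in NT_p62WT mice. The mean HD effect on Gdnf was -0.14 ± 0.061 (SE; adjusted p = 0.0947), and -0.18 and called without NT_p62KO replicate 1 (adjusted p = 0.0302), whose 7.27 was the lowest non-transgenic value. Gfra1 read 9.97 to 10.11 in HD_p62KO and 9.95 to 10.01 in HD_p62WT mice, against 10.10 to 10.17 in NT_p62KO and 10.12 to 10.15 in NT_p62WT mice. Its mean HD effect was -0.12 ± 0.044 (SE; adjusted p = 0.0549). Gfra1 passed after a further quantile normalization (-0.17, adjusted p = 0.0153), with equal array medians (-0.14, adjusted p = 0.0288) and in 3 other settings at an unchanged threshold (-0.12 to -0.11). Neither gene was called in the main fit. The difference of Gdnf was close to the spread between mice (SD within groups 0.0503 to 0.154). Within groups the SD of Gfra1 was 0.0144 to 0.0758, and its HD_p62KO and NT_p62KO mice overlapped.

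Gfra2, encoding the co-receptor preferred by neurturin, lies on chromosome 14 (70890107 to 70979840) and was the most variable gene of the set. It read 7.35, 7.93 and 8.26 in HD_p62KO against 8.55, 8.52 and 7.56 in NT_p62KO mice, which overlap. With normal p62 it read 7.75, 6.84 and 7.26 in HD_p62WT against 8.16, 8.48 and 8.33 in NT_p62WT mice, which do not. The mean HD effect was -0.70 ± 0.21 (SE, 1.63-fold lower; adjusted p = 0.0221). With normal p62 the difference was -1.04 ± 0.29 (SE; adjusted p = 0.053), called without HD_p62KO replicate 1 or NT_p62KO replicate 3, which enter through the shared spread (adjusted p = 0.0422 and 0.0231). It was also called with only the groups compared (adjusted p = 0.0281), with array weights (-0.93, adjusted p = 0.0137) and with dim genes left out (adjusted p = 0.0359). Without p62 it was -0.36 ± 0.29 (SE; adjusted p = 0.368).

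In 3 of the 4 groups the mouse lowest in Gfra2 was also lowest in cortical excitatory neuron markers. In each group the mouse lowest in Gfra2 also had the array of smallest SD over all genes. These SDs were 1.66 for HD_p62KO replicate 1, 1.64 for HD_p62WT replicate 2, 1.58 for NT_p62KO replicate 3 and 1.6467 for NT_p62WT replicate 1. Within NT_p62KO, replicate 3 had the lowest Gfra2 and the lowest cortical list mean (7.85, against 8.59 and 8.33 in replicates 1 and 2). HD_p62WT replicate 2 (cortical mean 7.74, against 7.96 and 7.90 in replicates 1 and 3) and NT_p62WT replicate 1 (8.11, against 8.24 and 8.62 in replicates 2 and 3) were likewise lowest in both within their groups, while in HD_p62KO the lowest Gfra2 was in replicate 1 and the lowest cortical mean in replicate 2. With the cortical mean as a covariate the mean HD effect on Gfra2 was -0.36 ± 0.22 (SE; adjusted p = 0.235). With array SD as a covariate it was -1.27 ± 0.12 (SE; adjusted p = 0.000222), and then both single comparisons passed (-1.11 without p62 and -1.43 with normal p62, adjusted p = 0.00608 and 0.000718). The parts of cortical tissue and of array spread in the Gfra2 result were not tested beyond these values.

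**Figure D3:**
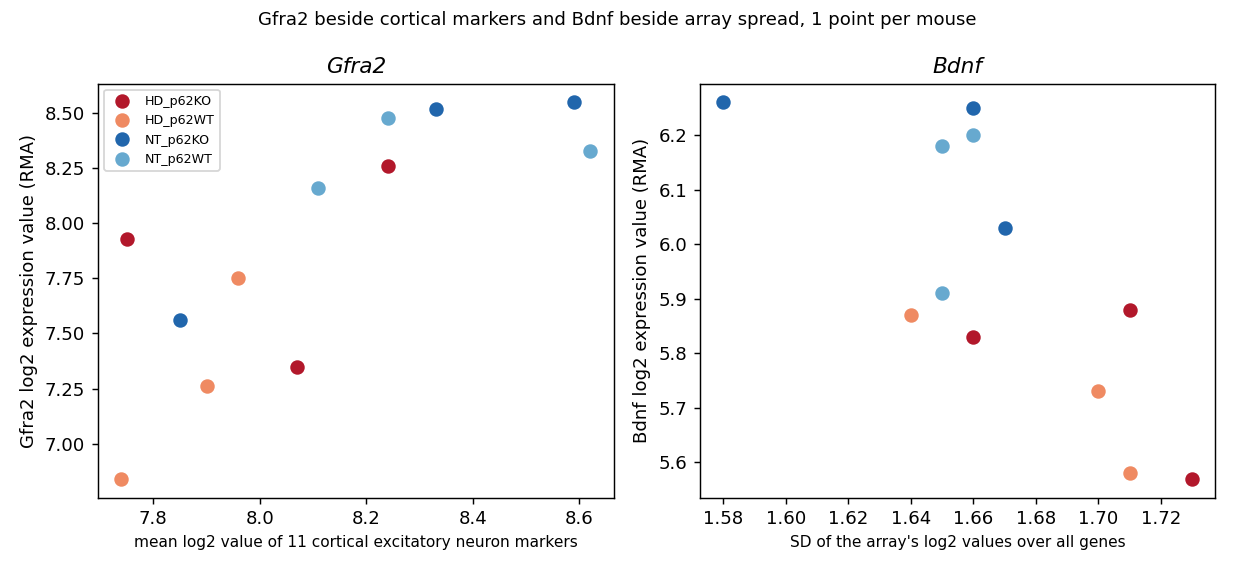
Left, Gfra2 (log2 value, y axis) against the mean log2 value of 11 cortical excitatory neuron markers (x axis); right, Bdnf (log2 value, y axis) against the SD of each array over all genes (x axis), 1 point per mouse coloured by group. The lowest Gfra2 value, 6.84 in HD_p62WT replicate 2, is in the mouse with the lowest cortical mean (7.74), and the lowest Bdnf value, 5.57 in HD_p62KO replicate 2, is on the array with the largest SD (1.73).

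In single comparisons, counts of separated groups differed from counts of called genes. With normal p62, the HD_p62WT mice lay entirely below the NT_p62WT mice for 7 of the 8 genes (Ntrk2 was the exception) and for 15.3% of all genes. Without p62 the HD_p62KO mice lay below the NT_p62KO mice for 3 of the 8 (Bdnf, Ntrk3 and Sorcs2) and for 17.2% of all genes. The order of group means placed both HD groups below both non-transgenic groups for 7 of the 8 genes, again without Ntrk2. The HD groups overlapped each other for every gene, as did the non-transgenic groups.

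Loss of p62 was not accompanied by a detected change in any of the 8 genes. Among HD mice the differences, HD_p62KO minus HD_p62WT, ran from -0.04 for Sort1 to 0.57 for Gfra2, and 0 of 8 had an unadjusted p below 0.05 (limma, each adjusted p = 1). Gfra2 averaged 7.85 ± 0.46 in HD_p62KO and 7.28 ± 0.46 in HD_p62WT mice (SD, n = 3 each), with a 95% interval of the difference from -0.08 to 1.21. For Ntrk3 the interval was -0.12 to 0.15, for Sorcs2 -0.19 to 0.22 and for Bdnf -0.22 to 0.28. Among non-transgenic mice the differences, NT_p62KO minus NT_p62WT, ran from -0.11 for Gfra2 to 0.08 for Bdnf, again with 0 of 8 at an unadjusted p below 0.05. Over all genes the p62 comparisons called 0.0052% of genes among HD mice and 0.0052% among non-transgenic mice, in each case Sqstm1 alone.

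The HD effect itself was not shown to depend on p62 for any of the 8 genes. The difference of the HD effects (without p62 minus with normal p62) was -0.05 ± 0.16 for Bdnf, 0.03 ± 0.087 for Ntrk3, 0.08 ± 0.14 for Sorcs2 and 0.68 ± 0.42 for Gfra2 (SE; limma, adjusted p = 0.991 each). Of the 8 genes 0 had an unadjusted p below 0.05, and 0% of all genes were called. The 95% intervals were -0.40 to 0.30 for Bdnf, -0.16 to 0.21 for Ntrk3 and -0.23 to 1.58 for Gfra2, and the interval of Gfra2 was the widest.

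Genes whose values across the 12 mice were closest to those of a called gene were found by the root mean square difference of log2 values centred on each gene's mean. For Ntrk3 they were Mettl6 (0.0357), the sodium-calcium exchanger Slc8a3 (0.039) and the astrocyte glutamate transporter Slc1a2 (0.0427). For Sorcs2 they were Galnt18 (0.0682), the ephrin ligand Efna3 (0.0689) and the tubulin Tuba4a (0.0718). Sort1 was closest to Ptms (0.0408), the kinase Pak6 (0.043) and the myosin heavy chain Myh10 (0.0443). The genes closest to Bdnf were the olfactory receptor Olfr147 (0.0682), the butyrophilin Btn1a1 (0.0845) and Ush1c (0.0873). Nearest to Gfra2 were the isoprenoid enzyme Idi1 (0.263), the potassium channel Kcnj6 (0.265) and the synaptic organizer Cbln2 (0.271). Since these 15 genes were picked for their likeness to genes that fell, their own HD effects follow from the choice.

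Among other ligands and receptors of the same families, 13 of 17 differences were negative. Of the 17 measured, 6 fell, 3 rose and 8 did not pass for the mean HD effect, with a median of -0.18. Over all genes 15.0% fell and 19.9% rose, with a median of -0.02, so the share that rose was near that of all genes. Nrtn, encoding neurturin, the ligand of GFRα2, fell by 0.28 (SE 0.055; adjusted p = 0.00306), and its HD mice lay entirely below the non-transgenic mice. Sorcs3 fell by 0.29 (SE 0.060), Sorcs1 fell by 0.16 (SE 0.045) and Ngfr, encoding the p75 receptor, fell by 0.25 (SE 0.058; adjusted p = 0.00387, 0.0192 and 0.00651). Lingo1, a partner of p75 in the Nogo receptor complex, fell by 0.30 (SE 0.075; adjusted p = 0.0107), and Ntf5, a further ligand of TrkB, fell by 0.19 (SE 0.051; adjusted p = 0.013). The heparan sulfate proteoglycan Sdc3, the brightest not called, had a difference of -0.09 ± 0.053 (SE). The 3 that rose, named after their values were seen, were Gfra4 (0.14), the adhesion molecule Ncam1 (0.14) and Slitrk5, a co-receptor of TrkB (0.19), and 0 rose after a further quantile normalization or with array SD as a covariate (limma). Ngfr did not pass with array SD as a covariate, Lingo1 with the cortical mean, Ntf5 without the 3 arrays of smallest spread or with array SD, or Sorcs1 without those arrays or HD_p62WT replicate 1.

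Of 34 measured adaptors, kinases and feedback inhibitors of Trk and RET signalling, 7 rose, 6 fell and 21 did not pass, shares near those of all genes (19.9% higher and 15.0% lower), with a median of 0.01 that was -0.05 after a further quantile normalization. Sos1 and Sos2, the exchange factors that load Ras with GTP, rose by 0.53 ± 0.066 and 0.47 ± 0.064 (SE; adjusted p = 0.000242 and 0.000443). The adaptor Gab2 rose by 0.21 ± 0.047 and the kinase Map2k5, which acts in the ERK5 pathway, by 0.24 ± 0.057 (SE; adjusted p = 0.00584 and 0.00774). The docking proteins Dok5 and Dok4 fell by 0.26 (SE 0.053) and fell by 0.19 (SE 0.045; adjusted p = 0.00357 and 0.00871). For Kidins220, a Trk-binding scaffold and the brightest not called, the difference was 0.12 ± 0.054 (SE; adjusted p = 0.0985). With array SD as a covariate 3 rose and 2 fell, Map2k5 not passing, and without the 3 arrays of smallest spread neither Map2k5 nor Dok4 passed.

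Of 24 measured genes that process, release or carry BDNF, 4 rose, 3 fell and 17 did not pass, with a median of 0.05. These shares too were near the 19.9% higher and 15.0% lower of all genes. Ahi1, a partner of the huntingtin-associated protein HAP1, rose by 0.54 ± 0.088, the dynactin subunit Dctn2 by 0.44 ± 0.083 and the kinesin motor Kif5b by 0.25 ± 0.057 (SE; adjusted p = 0.00115, 0.0026 and 0.00703). The proprotein convertase Pcsk7 rose by 0.20 ± 0.047 (SE; adjusted p = 0.00752), and its relative Pcsk5 fell by 0.22 (SE 0.059; adjusted p = 0.0135). The neuronal kinesin Kif5c fell by 0.24 (SE 0.070; adjusted p = 0.0215), and the related Kif5a, the brightest not called, had a difference of 0.07 ± 0.048 (SE). With array SD as a covariate 2 rose, Kif5b, Pcsk7 and Pcsk5 not passing, and with the cortical mean as a covariate 0 fell (limma). Pcsk7 and Pcsk5 also did not pass without the 3 arrays of smallest spread, and Kif5c did not pass without HD_p62KO replicate 3 or NT_p62WT replicate 3.

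Among 18 measured regulators of Bdnf transcription 4 rose, 2 fell and 12 did not pass, with a median of 0.09, again near the shares of all genes (19.9% and 15.0%). The acetyltransferases Ep300 and Crebbp, which CREB recruits, rose by 0.57 ± 0.074 and 0.38 ± 0.057 (SE; adjusted p = 0.000322 and 0.00073). The histone deacetylase Hdac2 rose by 0.53 ± 0.081 and Rest, the repressor of neuronal genes, by 0.41 ± 0.088 (SE; adjusted p = 0.000796 and 0.00495). Npas4, an activity-induced activator of Bdnf, fell by 0.71 (SE 0.19; adjusted p = 0.0136), and the serum response factor gene Srf fell by 0.21 (SE 0.053; adjusted p = 0.0118). Npas4 fell by 1.09 with normal p62 (limma, adjusted p = 0.0324) and differed by -0.33 without p62 (adjusted p = 0.368). The difference of these HD effects was 0.76 ± 0.38 (SE; adjusted p = 0.991). The activity-regulated factor Mef2a, the brightest not called, had a difference of 0.10 ± 0.054 (SE). With array SD as a covariate neither Rest nor Npas4 passed, and with the cortical mean neither Rest nor Srf. Srf also did not pass without the 3 arrays of smallest spread.

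Genes that BDNF induces in cultured neurons, which other activating signals induce too, were lower in HD mice. Of 14 measured, 10 fell, 0 rose and 4 did not pass, and all 14 differences were negative, with a median of -0.44 (limma). Over all genes 15.0% fell and 19.9% rose, with a median of -0.02. With array SD as a covariate 7 of the 14 fell. The HD mice had list means of 8.36 to 8.53 (HD_p62KO) and 8.36 to 8.46 (HD_p62WT), against 8.71 to 9.09 in NT_p62KO and 8.78 to 8.95 in NT_p62WT mice. Homer1, a scaffold of the postsynaptic density, fell by 0.72 (SE 0.054), the transcription factor Egr3 fell by 0.69 (SE 0.048) and Nptx2, a synaptic pentraxin, fell by 0.69 (SE 0.072; adjusted p = 9.27e-06, 6.01e-06 and 7.28e-05). Vgf, a secreted neuropeptide precursor, fell by 0.36 (SE 0.052; adjusted p = 0.000597). The zinc-finger factors Egr1 and Egr4 fell by 0.56 (SE 0.092; adjusted p = 0.00128) and by 0.32 (SE 0.057; adjusted p = 0.00194). Nr4a1, the brightest that did not pass, differed by -0.31 ± 0.22 (SE), and over the alternatives by -0.62 to 0.06. Loss of p62 and the difference of the HD effects called 0 genes of any of these 5 lists (limma).

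**Figure D4:**
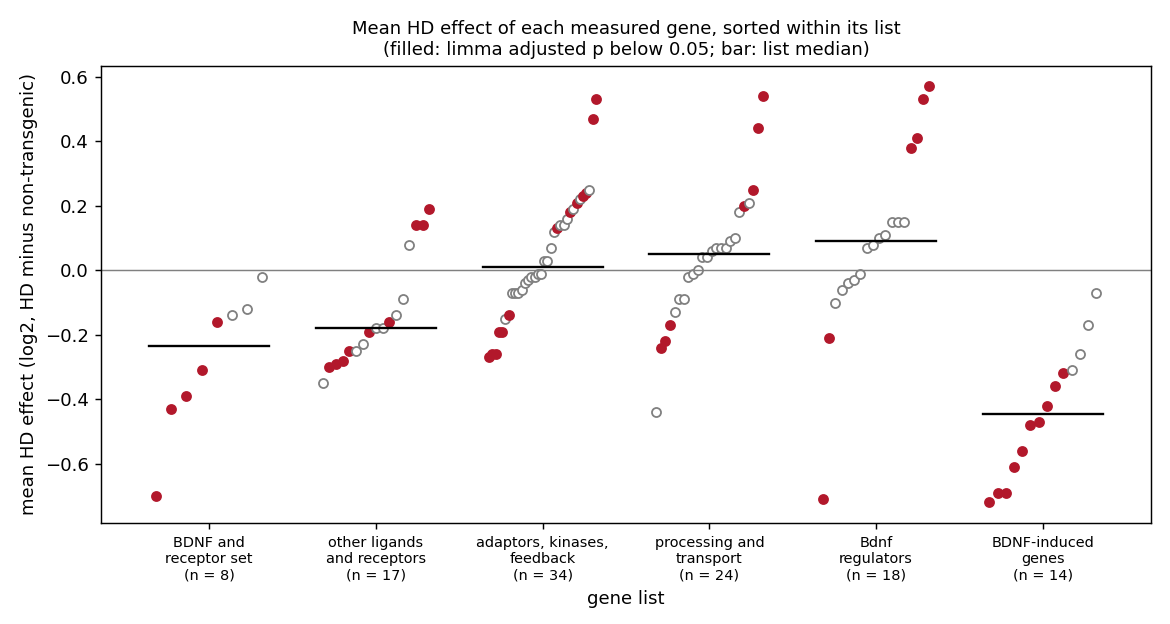
Mean HD effect (log2, HD minus non-transgenic, y axis) of each measured gene, sorted within its list (x axis), for the 8 genes described above and the 5 lists around them, with filled points for an adjusted p below 0.05 and a bar at each list's median. The medians are -0.24 for the 8 genes and -0.44 for BDNF-induced genes, against 0.01 to 0.09 for the signalling, transport and regulator lists.

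Markers of other cells that could carry these receptors gave the following values for the mean HD effect, in which 15.0% of all genes fell and 19.9% rose. Of 12 projection neuron markers 9 fell and 1 rose (Tac1), and of 11 interneuron markers, which share Npy with the BDNF-induced list, 8 fell and 0 rose. Interneuron list means were 8.22 to 8.23 in HD_p62KO and 8.12 to 8.21 in HD_p62WT mice, against 8.49 to 8.63 in NT_p62KO and 8.59 to 8.63 in NT_p62WT mice, and for both neuron lists every HD mouse was below every non-transgenic mouse. Of 10 astrocyte markers, cells that carry truncated TrkB, 3 fell and 0 rose, with list means of 9.63 to 9.75 in HD_p62KO and 9.59 to 9.70 in HD_p62WT mice, against 9.80 to 9.83 in NT_p62KO and 9.78 to 9.95 in NT_p62WT mice. For astrocytes too every HD mouse was below every non-transgenic mouse. Of 9 mature oligodendrocyte markers 5 fell and 0 rose. Their list means were 10.64 to 10.83 in HD_p62KO and 10.60 to 10.84 in HD_p62WT mice. They were 10.84 to 10.97 in NT_p62KO and 10.89 to 11.06 in NT_p62WT mice. Counts were 1 lower and 1 higher of 7 oligodendrocyte precursor markers, 1 higher of 7 microglia markers, 2 lower of 8 endothelial and mural markers, 1 lower of 9 thalamic, septal and pallidal markers, and 1 higher of 10 choroid plexus markers. Choroid plexus list means were 8.23 to 8.47 in NT_p62KO against 7.1 to 7.48 in NT_p62WT mice, without overlap. They were 7 to 9.1 in HD_p62KO and 7 to 8.35 in HD_p62WT mice. Thalamic, septal and pallidal list means were 8.02 to 8.18 in HD_p62KO against 7.6 to 7.87 in HD_p62WT mice, also without overlap. In non-transgenic mice they overlapped (7.66 to 8.44 in NT_p62KO and 7.74 to 8.62 in NT_p62WT). The part of cell composition in the changes of the receptor genes was not tested.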

How the data were processed

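Striatal RNA, 100 ng a sample, went onto Affymetrix whole-transcript arrays (labels' protocols). The deposited unit is a log2 value per probe set, for which the submitters' processing notes name RMA without settings. RMA makes the arrays' distributions alike, which hides a shift common to most genes. Detection calls were not used, and precision is limited by how few arrays there are.

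The platform annotation gave a single symbol to 19942 of 24055 probe sets, several to 1225 and none to 2888. The probe set with the highest mean was kept per gene, leaving 19248 genes. Groups and replicate numbers came from the sample titles, which call the samples biological replicates. The labels do not say more, so p-values reflect only how these samples vary. limma 3.58.1 in R 4.3.3 fitted 1 mean per group over all 12 arrays (8 residual and 4.14 prior degrees of freedom), with Benjamini-Hochberg adjustment over all genes. The fit was tested on simulated data. Same-numbered mice of different groups did not deviate together (18 correlations of deviations, -0.337 to 0.206, 4 of them over 0.1), so the number was not taken as a pairing. The 36 correlations between mice of other numbers ran from -0.327 to 0.432. HD_p62WT replicate 2 and NT_p62KO replicate 3 gave 0.432. HD_p62KO replicate 1 gave 0.392 with the former and 0.365 with the latter. What these mice share was not tested. Gene positions and promoter windows came from RefSeq (GRCm38.p6); 8 of 8 gene IDs matched, and no build is given for the arrays.

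The genes, lists and tests were chosen with earlier results of these data known. From each list the text names up to 6 called genes with the smallest p for the mean HD effect and the brightest that was not called, and for each called gene of the set the 3 nearest in pattern. Alternatives were the replicate number as a block, 2 further normalizations, a filter leaving out genes under the 25th percentile of brightness (which leaves out Bdnf), the average of probe sets, other variance models, array weights, only the groups compared, 3 covariates, fewer arrays and a threshold of 0.1. For the 5 lists and their named genes these were added after seeing the data.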

Additional observations from a re-analysis of the deposited data

How the results depend on the processing

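With normal p62 the number of the 8 genes called was 4 with array weights, 0 with the cortical marker mean as a covariate and 4 at an adjusted p below 0.1, against 2 as reported. Without p62 it was 1 with only the groups compared in the fit, against 3. For the mean HD effect it was 3 with the cortical marker mean, against 5. Leaving out 1 mouse at a time gave 0 to 3 calls with normal p62, 1 to 3 without p62, 4 to 5 for the mean HD effect and 0 to 0 for the p62 effects and the difference of the HD effects. With normal p62 the count was 1 without HD_p62WT replicate 1 or NT_p62WT replicate 3 and 0 without NT_p62WT replicate 1, and without p62 it was 1 without HD_p62KO replicate 2. With the replicate number as a block the counts were 2 with normal p62, 3 without p62 and 4 for the mean HD effect, Sort1 being lost (-0.16, adjusted p = 0.0563). Over all genes the block gave 709 calls with normal p62, against 1366, and 3054 without p62, against 4172, and 2 of 12 mice correlated best with a mouse of their own number. Over 1178 values of single genes under the alternatives, 29 lost and 22 gained a call, 0 called differences changed sign, and 62 differences that were not called did, 8 of them in the HD comparisons. Over all genes, calls with normal p62 numbered 4625 with array weights, 663 with the choroid plexus mean and 483 with the cortical mean as a covariate, and 2799 at an adjusted p below 0.1, against 1366. Without p62 they numbered 6663 with array weights, 843 with array SD as a covariate, 1790 without the 3 arrays of smallest spread, 1742 with only the groups compared and 6465 at an adjusted p below 0.1, against 4172, and for the mean HD effect 2541 with array SD, against 6728. They ran from 398 to 2040 with normal p62 and from 1273 to 5128 without p62 on leaving out 1 mouse. With 3 mice a group, and no detection calls used, small differences and dim probe sets such as that of Bdnf are limited in precision. Where a call changed, the cause was not tested.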
